A study of Mus musculus with 47 samples.

Results

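Abca8b, Abca8a, Abca9, Abca6 and Abca5 lie side by side on mouse chromosome 11 and encode ABC-A transporters, large membrane proteins that move lipids. These 5 genes, of 48795 in the deposited tables, were chosen by their shared place in the genome and with the Q140 results of Abca8a in the same mice already known. The Q140 comparisons of the 5 genes are therefore given as a description with no test, while the Ccdc82, sex and covariation results are tested. Some tested contrasts also use the Q140 group and are not fully separate from the choice of Abca8a. They are the Ccdc82 contrasts in mice with Q140, the Ccdc82 contrasts averaged over Q140 states, and the interactions with Q140. RNA of the cerebral cortex was sequenced in 47 mice of 6 months, 23 female and 24 male, all given as strain background C57BL. There were 8 mice each of wild type (WT), Ccdc82+/- and Ccdc82-/-, and, carrying the Q140 allele, 8 of Q140, 8 of Q140 X Ccdc82+/- and 7 of Q140 X Ccdc82-/-. Q140 is a knock-in of an expanded CAG repeat in the huntingtin gene, used as a model of Huntington's disease, and the titles give its carriers as heterozygous. Ccdc82 is a coiled-coil domain gene. The labels do not say how its mutant allele was made. The libraries are of whole cortex at 1 age, so the values mix all of its cell types. Library totals ranged from 43554594 to 61370843 counts (median 50473683).

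ABC-A transporters are full-length pumps with a pair of membrane domains and a pair of nucleotide-binding domains, and they use ATP to move phospholipids, sterols or sphingolipids across or out of a membrane. The best known relative, Abca1, loads cholesterol and phospholipid onto apolipoproteins. Abca5 sits in endosomes and lysosomes and has been tied to cholesterol and sphingomyelin handling. Abca8a and Abca8b are mouse copies that correspond to a single human gene, ABCA8, which has been linked to sphingomyelin production in oligodendrocytes, the cells that make myelin. Abca6 and Abca9 respond to cholesterol load in macrophages, and their substrates are less well defined.

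All 5 genes are read from the minus strand within 405527 bases of chromosome 11 (GRCm38, GENCODE M21). Abca8b (ENSMUSG00000020620) spans chr11:109932190-109995845 and Abca8a (ENSMUSG00000041828) spans chr11:110025634-110095978. Abca9 (ENSMUSG00000041797) follows at chr11:110100749-110168196, Abca6 (ENSMUSG00000044749) at chr11:110176820-110251776 and Abca5 (ENSMUSG00000018800) at chr11:110269369-110337716. The gap between neighbours is smallest between Abca8a and Abca9, at 4770 bases, and largest between Abca8b and Abca8a, at 29788 bases. The main transcript of each gene has 39 exons, and the coding length is 4860 bases in Abca8a and Abca8b, 4869 in Abca9, 4872 in Abca6 and 4926 in Abca5. Aligned coding sequences were 74.8% identical between Abca8a and Abca8b, 71% between Abca8a and Abca9 and 70.8% between Abca8b and Abca9. Abca5 stood farthest from the rest, at 60.3% to 61%.

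Because near-identical stretches let a read fit more than 1 gene, the transcripts were compared for identical words of 50 bases. Abca8a shared 1.64% of its words, all with Abca8b, and Abca8b shared 1.42%. Abca6 and Abca9 shared 0.243% and 0.162% with each other, and Abca5 shared 0. No word of 100 bases was common to any pair. The longest coding run common to Abca8a and Abca8b is 97 bases across an exon junction (chr11:110068847-110069449 in Abca8a, chr11:109965010-109966755 in Abca8b, minus strand). It is shown because it is the place where their reads are hardest to separate, and none of it is in capitals since every base is shared.
Shared run: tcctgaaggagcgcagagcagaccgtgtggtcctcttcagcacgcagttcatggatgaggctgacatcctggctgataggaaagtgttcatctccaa
Reads lying in such a run could not be assigned to either copy with certainty, and the levels of Abca8a and Abca8b carry that small uncertainty. The antisense gene Gm11697 overlaps Abca8b and held 0 to 1 counts in every mouse.

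RefSeq promoters of 300 bases around the start (GRCm38.p6) were found for 4 of the 5 genes, the exception being Abca6. Those of Abca8a and Abca9, which differed between the sexes below, are shown beside that of Abca8b, the closest relative of Abca8a, all 5′ to 3′ on the minus strand. Capitals mark CACGTG, an E-box, which reads the same on both strands.
Abca8a, chr11:110095888-110096187: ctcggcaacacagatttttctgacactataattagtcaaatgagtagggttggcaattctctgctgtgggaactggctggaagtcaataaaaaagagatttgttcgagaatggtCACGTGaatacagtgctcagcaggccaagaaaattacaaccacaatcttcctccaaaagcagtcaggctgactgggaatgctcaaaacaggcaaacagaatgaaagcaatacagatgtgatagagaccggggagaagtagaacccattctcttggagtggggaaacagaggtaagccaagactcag
Abca8b, chr11:109995796-109996095: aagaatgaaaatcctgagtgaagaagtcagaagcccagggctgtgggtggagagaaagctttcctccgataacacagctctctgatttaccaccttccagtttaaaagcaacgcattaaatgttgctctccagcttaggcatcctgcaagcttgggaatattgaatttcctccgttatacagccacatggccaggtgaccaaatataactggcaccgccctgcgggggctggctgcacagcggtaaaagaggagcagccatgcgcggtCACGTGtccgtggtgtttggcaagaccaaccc
Abca9, chr11:110168104-110168403: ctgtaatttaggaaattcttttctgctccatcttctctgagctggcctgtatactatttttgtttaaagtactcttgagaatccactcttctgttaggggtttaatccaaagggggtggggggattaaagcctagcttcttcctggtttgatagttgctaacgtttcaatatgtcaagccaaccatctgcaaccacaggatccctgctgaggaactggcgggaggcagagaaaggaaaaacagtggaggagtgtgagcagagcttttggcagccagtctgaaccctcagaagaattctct
The motif occurs once in the Abca8a window, at position -136 from the start, and once in the Abca8b window, at position 18, inside a word of 9 bases that both share. It was noticed on reading the sequences, and 7.15% of 32851 promoters of this length hold it. GGGCGG, the GC box, was found on either strand 5 times in Abca5 and once in Abca8b, against 35.7% of all promoters with at least 1. TATAAA and the nuclear receptor half-site AGGTCA were in none of the 4 windows, and 13.6% and 16.3% of all promoters hold them. Abca5 differs in composition, with 72.3% GC and 40 CpG pairs. Abca8b has 51.3% GC, Abca9 45.3% and Abca8a 44.3%, with 10, 2 and 4 CpG pairs, beside medians of 52.7% and 7 over all promoters. These matches describe letters and show no binding.

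In FPKM, which is per gene length and library total, Abca5 was the most abundant of the cluster and Abca6 the least. Abca5 averaged 7.78 ± 0.339 FPKM (SD, n = 47 mice), from 7.05 to 8.79. Abca8b followed at 4.89 ± 0.306, from 4.29 to 5.66. Abca9 (1.36 ± 0.188, from 1.04 to 1.89) and Abca8a (1.26 ± 0.216, from 0.904 to 1.98) lay close together, and Abca6 averaged 0.400 ± 0.0440, from 0.299 to 0.481. In every mouse Abca5 was above Abca8b, by 1.37 to 1.90 times, and Abca8b was at least 2.43 times as high as Abca8a. Abca9 and Abca8a were not separated, since their ratio ran from 0.797 to 1.62. Levels compared between genes depend on the length behind FPKM. It was 11437 bases for Abca5 and 8048 for Abca9, against main transcripts of 8231 and 6384. For Abca8a and Abca6 it was 6272 and 5398, against 5619 and 5240, and for Abca8b both were 7423. Among the 19174 genes kept for testing, 67.1% had a lower mean FPKM than Abca5, 56.1% than Abca8b, 33.3% than Abca9, 32% than Abca8a and 17.6% than Abca6. The counts behind these levels ran from 3727 to 5766 for Abca5, 1544 to 2456 for Abca8b, 396 to 773 for Abca9, 295 to 561 for Abca8a and 86 to 141 for Abca6.

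Of the 11 other ABC-A genes in the files, 7 passed the filter on low counts. Abca2, a transporter abundant in oligodendrocytes, averaged 34.3 ± 1.35 FPKM and Abca3, known for loading surfactant lipids in lung, 14.7 ± 0.400, both above Abca5. Abca7 (5.16 ± 0.388) and Abca1 (4.59 ± 0.435) were near Abca8b.

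**Figure D1:**
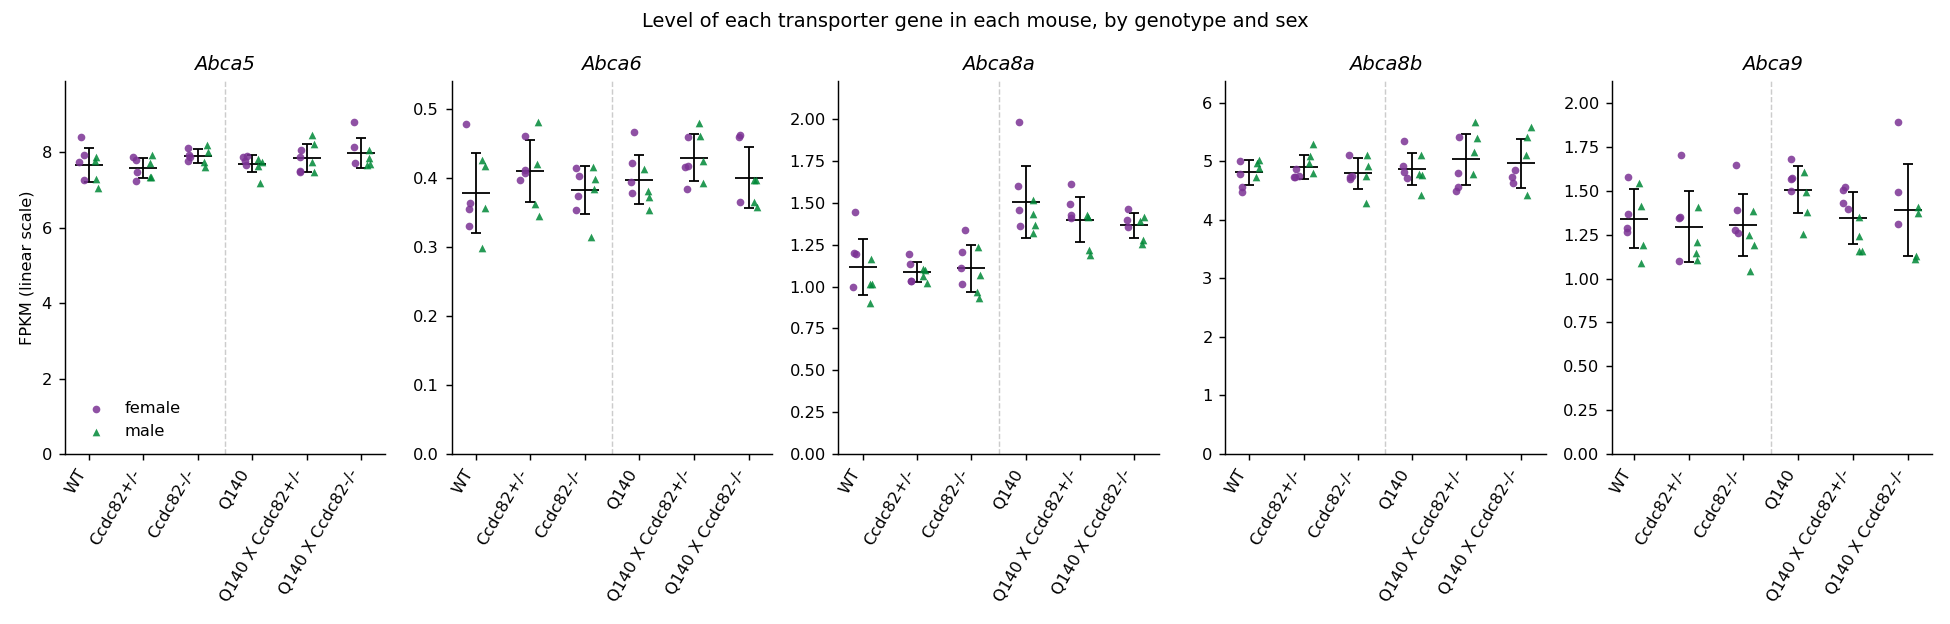
FPKM (linear scale from 0) of each gene in each of 47 mice by genotype, with females as circles and males as triangles; horizontal bars are means and error bars SD, and the dashed line parts mice without Q140 from mice with it. The Abca8a means run from 1.09 to 1.12 on the left and 1.37 to 1.50 on the right, a wider step than in Abca9, whose means run from 1.30 to 1.34 and from 1.35 to 1.51.

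Abca8a was higher in mice with Q140 on each Ccdc82 background. In WT the lowest, median and highest mouse had 0.904, 1.09 and 1.44 FPKM, and in Q140 1.32, 1.45 and 1.98. In Ccdc82+/- they were 1.02, 1.08 and 1.19, against 1.19, 1.42 and 1.61 in Q140 X Ccdc82+/-. In Ccdc82-/- they were 0.934, 1.09 and 1.34, against 1.25, 1.39 and 1.46 in Q140 X Ccdc82-/-. The groups overlapped: 4 of 8 Q140 mice lay above the highest WT mouse, 7 of 8 above the highest on Ccdc82+/- and 5 of 7 above the highest on Ccdc82-/-. All 23 mice with Q140 lay above the median of the 24 without it.

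The fitted log2 difference of Abca8a was 0.43 (SE 0.067) against WT, 0.36 (SE 0.068) on Ccdc82+/-, 0.31 (SE 0.070) on Ccdc82-/- and 0.36 (SE 0.039) pooled over the 3 backgrounds, a 1.29-fold level. The 3 comparisons share no mice, but they come from the same fit, with a common sex term and a common estimate of the spread. Female 1 of the Q140 group stood above the other 7 at 1.98 FPKM, and without this mouse the difference against WT was 0.37 (SE 0.065) and the pooled one 0.35 (SE 0.037).

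The other genes of the cluster had smaller pooled Q140 differences on the log2 scale: 0.10 (SE 0.048) for Abca9, 0.06 (SE 0.047) for Abca6, 0.03 (SE 0.023) for Abca8b and 0.02 (SE 0.018) for Abca5. Abca9 reached 1.51 ± 0.136 FPKM in Q140 (n = 8) against 1.34 ± 0.168 in WT (n = 8), with 2 of 8 Q140 mice above the highest WT mouse. On Ccdc82+/- the Abca9 means were 1.30 ± 0.203 without and 1.35 ± 0.146 with Q140, and on Ccdc82-/- 1.31 ± 0.176 and 1.39 ± 0.262, each closer than the spread between mice. Abca8b, the neighbour and closest relative of Abca8a, had 4.81 ± 0.207 FPKM in WT and 4.86 ± 0.273 in Q140, and a log2 difference of 0.01 (SE 0.040). Abca5 had 7.67 ± 0.442 in WT and 7.70 ± 0.225 in Q140, with a difference of 0.00 (SE 0.030). Abca6 had 0.378 ± 0.0581 and 0.398 ± 0.0354.

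EdgeR calls at an adjusted p under 0.05 are printed only to place these values, and nothing is read from them. Of the 5 genes 1 was called against WT, where 0.0313% of all 19174 genes were. On Ccdc82+/- it was 1 of 5 beside 0.0313%, on Ccdc82-/- 0 of 5 beside 0.0209%, and in the pooled contrast 1 of 5 beside 0.876%. Where a gene was called it was Abca8a. Ordering the genotypes by mean level, the step between neighbours exceeded the larger SD of the pair in 1 place over the 5 genes, namely Abca8a from WT (1.12 ± 0.169) to Q140 X Ccdc82-/- (1.37 ± 0.0756). Every other pair of neighbours in the order differed by less than their spread.

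**Figure D2:**
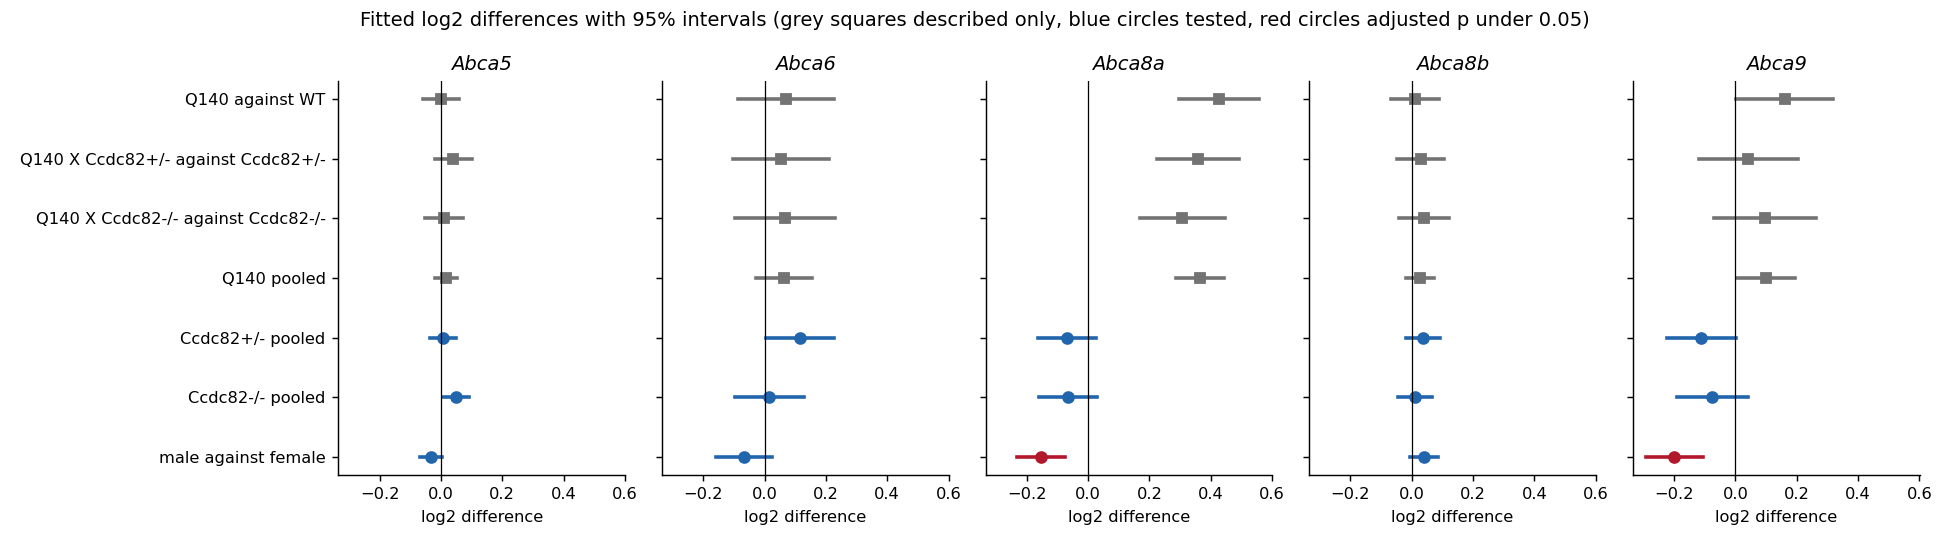
Fitted log2 differences (x axis) with 95% intervals for 7 contrasts (y axis) of each gene; grey squares are described only, circles were tested, and red circles passed the adjusted p of 0.05. Abca8a lies at 0.31 to 0.43 in the Q140 contrasts, and the red circles are the male against female contrasts of Abca8a and Abca9.

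Whether loss of Ccdc82 moved the transporters was tested with edgeR's quasi-likelihood method on counts, with sex as a term. None of the 5 genes was called in any of the 6 Ccdc82 contrasts, beside 0.00522% of all genes in each, which is 1 gene. In Ccdc82-/- against WT the log2 differences were 0.04 for Abca5 (SE 0.030), 0.02 for Abca6 (SE 0.081), -0.01 for Abca8a (SE 0.069), 0.00 for Abca8b (SE 0.040) and -0.04 for Abca9 (SE 0.082), with edgeR adjusted p = 0.999 for each. For Abca8a the 95% interval of -0.14 to 0.13 bounds what could be missed. In Ccdc82+/- against WT the differences ran from -0.05 (Abca9) to 0.12 (Abca6), with edgeR adjusted p = 0.993. In mice with Q140, Ccdc82+/- gave -0.17 for Abca9 (SE 0.081) and -0.10 for Abca8a (SE 0.066), with edgeR adjusted p = 0.921 and 0.959, and Ccdc82-/- gave -0.11 (SE 0.084) and -0.12 (SE 0.069), both with edgeR adjusted p = 0.997. Averaged over both Q140 states, Ccdc82-/- gave 0.05 for Abca5 (SE 0.022, 95% interval 0.0066 to 0.0923) and Ccdc82+/- gave 0.12 for Abca6 (SE 0.056, 95% interval 0.0049 to 0.226). Over the 6 contrasts, 3 of these 30 values had an unadjusted p under 0.05 and all failed the correction.

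Whether the Q140 difference depended on Ccdc82 was tested by the interaction. For Abca8a it was -0.07 with Ccdc82+/- (SE 0.095, edgeR adjusted p = 1) and -0.12 with Ccdc82-/- (SE 0.097, edgeR adjusted p = 1), with 95% intervals of -0.255 to 0.119 and -0.309 to 0.0716. For Abca9 the values were -0.12 (SE 0.115) and -0.06 (SE 0.117). The remaining 3 genes lay between -0.02 and 0.04. Leaving out in turn each of the 3 mice that Dixon's test sets apart below moved Abca8a. Its interaction ran from -0.0808 to -0.014 with Ccdc82+/- and from -0.13 to -0.0649 with Ccdc82-/-. Its difference from Q140 ran from -0.118 to -0.0512 in Q140 X Ccdc82+/- and from -0.137 to -0.0718 in Q140 X Ccdc82-/-. None of 5 passed in either interaction, beside 0% of all genes. The pooled Q140 difference did not differ detectably between the sexes: 0 of 5 passed, beside 0% of all genes, with 0.00 for Abca8a (SE 0.078, 95% interval -0.152 to 0.153) and -0.08 for Abca9 (SE 0.098).

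Abca8a and Abca9 were lower in males than in females, while Abca5, Abca6 and Abca8b did not pass the test. Female Abca9 ran from 1.10 through a median of 1.43 to 1.89 FPKM (n = 23), and male Abca9 from 1.04 through 1.25 to 1.61 (n = 24). Of the 24 males, 21 were below the female median. The log2 difference was -0.20 (SE 0.048, edgeR adjusted p = 0.00553), so that Abca9 fell by 12.9% in males. Female Abca8a ran from 0.999 through 1.36 to 1.98 FPKM and male Abca8a from 0.904 through 1.21 to 1.52, with 17 of 24 males below the female median and a log2 difference of -0.15 (SE 0.039, edgeR adjusted p = 0.00906). Each sex holds all 6 genotypes, and the sexes overlapped widely in both genes. The male mean was below the female mean in 6 of 6 genotypes for Abca8a and in 6 of 6 for Abca9.

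Within genotypes, the Abca9 means of females and males were 1.38 and 1.31 FPKM in WT (4 and 4 mice), 1.37 and 1.22 in Ccdc82+/-, and 1.39 and 1.22 in Ccdc82-/-. With Q140 they were 1.58 and 1.43, with Q140 X Ccdc82+/- 1.46 and 1.23, and with Q140 X Ccdc82-/- 1.57 and 1.26 (3 and 4 mice). For Abca8a the step was smallest in Ccdc82+/-, at 1.10 and 1.07, and in WT it was 1.21 and 1.03. The other 3 genes had log2 differences of -0.07 for Abca6 (SE 0.047, edgeR adjusted p = 0.377), -0.03 for Abca5 (SE 0.018, edgeR adjusted p = 0.25) and 0.04 for Abca8b (SE 0.023, edgeR adjusted p = 0.287). Calls were common between the sexes, at 10.5% of all genes, against 2 of these 5.

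**Figure D3:**
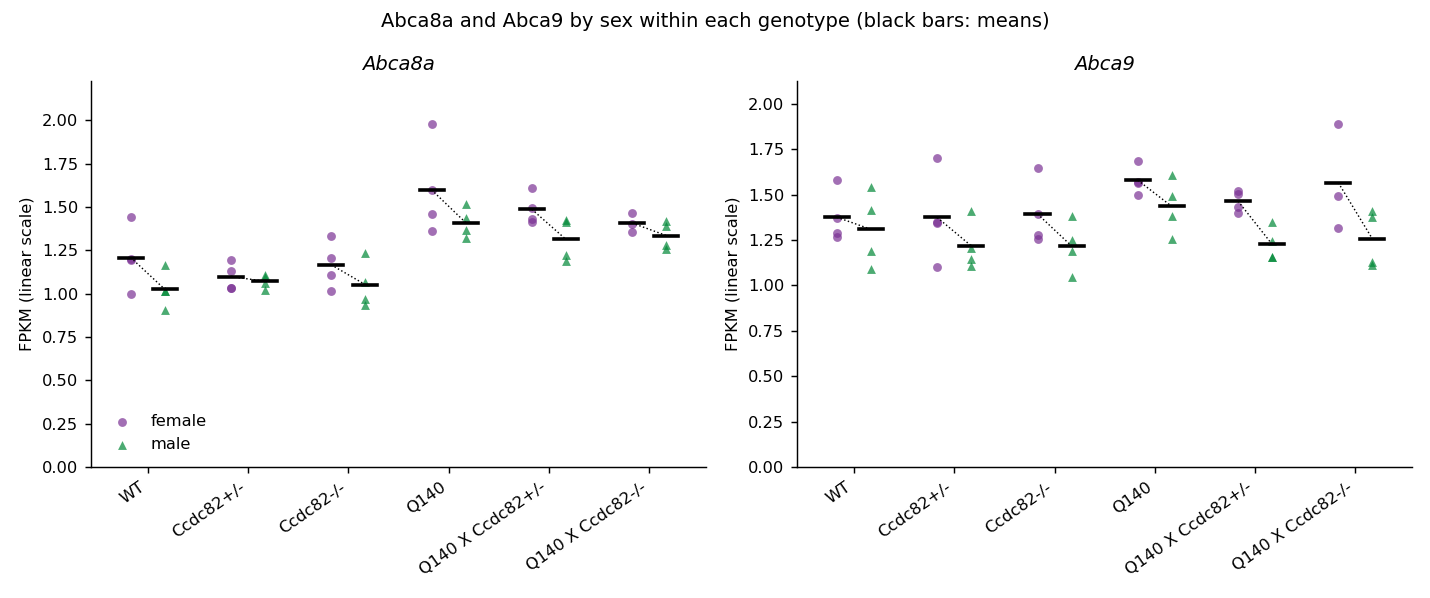
FPKM (linear scale from 0) of Abca8a and Abca9 in females (circles) and males (triangles) of each genotype, with black bars as means joined by dotted lines. All 12 dotted lines slope down from female to male, and the points of the sexes overlap.

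The library names carry a number, which the labels do not explain, and each of the 19 numbers held mice of 1 sex. With this number as a random block, a limma-trend fit gave adjusted p = 0.028 for Abca8a and 0.0307 for Abca9. Leaving out the mice of each number in turn kept Abca8a between -0.18 and -0.12 (log2) and Abca9 between -0.21 and -0.16, and both passed in 19 of 19 fits (edgeR adjusted p from 0.00399 to 0.0354 and from 0.00231 to 0.0284). Without female 1 of the Q140 group, Abca8a was at -0.13 (SE 0.037, edgeR adjusted p = 0.016). Some marker genes were also called with sex, a contrast in which 10.5% of all genes were called. Of 10 endothelial markers 4 fell in males and 0 rose (median log2 -0.07), of 7 markers of newly formed oligodendrocytes 3 fell and 0 rose (median -0.14), of 6 oligodendrocyte precursor markers 2 fell (median -0.03), of 15 oligodendrocyte markers 2 fell (median -0.04), of 11 astrocyte markers 1 fell (median -0.01), and of 9 neuron markers 2 rose (median 0.02). With 0 passing, all 11 fibroblast markers had values below 0 (median -0.16) and all 5 red blood cell markers above 0 (median 0.64). Microglia, pericyte and smooth muscle, and choroid plexus markers had 0 called. The summed FPKM ran from 60.2 to 73.8 in females and 56.3 to 72.4 in males for endothelial markers, from 34.7 to 53.8 and 29.6 to 41.4 for newly formed oligodendrocyte markers, and from 19.9 to 36.4 and 13.9 to 33.3 for fibroblast markers. No marker of these lists was listed at 0 in all mice, and their part in the sex difference was not tested. In bulk cortex, fewer cells of a type and less RNA per cell cannot be told apart.

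No pair of cluster genes had a correlation from mouse to mouse that passed the test. After removing genotype and sex from log2 CPM, the 10 pairs of cluster genes had Pearson r from -0.197 (Abca8b with Abca9) to 0.261 (Abca5 with Abca9) over 47 mice. The lowest adjusted permutation p was 0.738 for r and 0.98 for Spearman's rho. Abca8a and Abca9, which lie closest together, had r = 0.0184 (rho = 0.0236, permutation p = 0.9 and 0.881). The closest relatives, Abca8a and Abca8b, had r = -0.0626 (rho = -0.0774). Within library-name numbers, over 43 mice and without a test, the values were 0.332 for Abca8a with Abca8b, 0.443 for Abca6 with Abca9 and 0.117 for Abca8a with Abca9. On raw log2 CPM, which keeps genotype and sex, Abca8a with Abca9 had r = 0.398. The permutations kept genotype and sex in place, so they cannot test this raw value. The spread left within genotype and sex, as an SD of log2 CPM, was 0.062 for Abca5 and 0.082 for Abca8b, and larger at 0.14 for Abca8a, 0.15 for Abca6 and 0.17 for Abca9.

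Across mice, Abca8a and Abca9 followed markers of several cell types. These 55 relations were added after the data were seen, with permutation p-values adjusted over all 55. The marker score is the mean over a list of each gene's log2 CPM, centred and divided by its SD over the mice. Genotype and sex were removed first, except for the raw values. Abca8a followed the oligodendrocyte markers (r = 0.581, rho = 0.559, permutation p = 0.00146 and 0.00077, adjusted 0.0168 and 0.0109) and those of newly formed oligodendrocytes (r = 0.553, rho = 0.468, adjusted permutation p = 0.0168 and 0.0433). Without the 2 mice farthest from the median r was 0.455 and 0.425, and on raw log2 CPM it was 0.27 and 0.547. Abca9 followed endothelial markers (r = 0.568, rho = 0.538, adjusted permutation p = 0.00935 and 0.0109), fibroblast markers (r = 0.523, rho = 0.533, adjusted permutation p = 0.00935 and 0.0109) and astrocyte markers (r = 0.496, rho = 0.531, adjusted permutation p = 0.00715 for both). Without the 2 extreme mice these were 0.586, 0.487 and 0.548. Abca9 also had positive r with pericyte and smooth muscle (0.356), microglia (0.315), choroid plexus (0.308) and oligodendrocyte precursor markers (0.15). Its r was negative with neuron (-0.399, rho = -0.432), oligodendrocyte (-0.282) and red blood cell markers (-0.0978). None of these passed, the neuron markers coming nearest (adjusted permutation p = 0.0615 for r and 0.0574 for rho). For Abca9 with newly formed oligodendrocyte markers (r = 0.373) and Abca8b with endothelial markers (r = -0.425) r passed at adjusted permutation p = 0.0384 and 0.0497, but rho did not (0.0754 and 0.12). Abca5 and Abca6 had no relation that passed.

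Within library-name numbers, over 43 mice, Abca8a kept r = 0.487 with oligodendrocyte markers, and Abca9 kept 0.527 with endothelial, 0.571 with fibroblast and 0.64 with astrocyte markers, whereas Abca8b with endothelial markers dropped to -0.155. Whether Abca8a and Abca9 differ from each other in these relations was not tested.

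**Figure D4:**
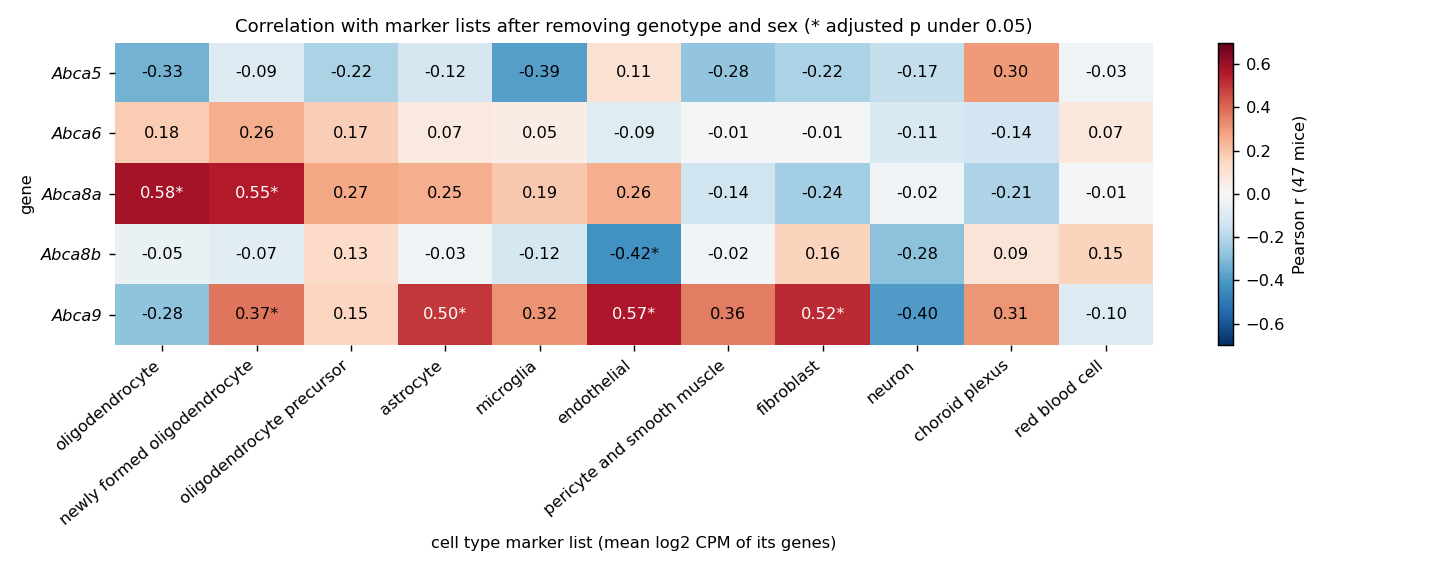
Pearson r over 47 mice between each transporter gene (rows) and the score of each cell type marker list (columns), after genotype and sex were removed. The score is the mean over a list of each gene's log2 CPM divided by its SD, a scaling that the axis label omits. An asterisk marks an adjusted permutation p under 0.05. Abca8a is highest with oligodendrocyte markers at 0.58 and Abca9 with endothelial markers at 0.57.

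The genes most alike across mice, by Pearson r of the same residuals among 19169 genes, differed by member. Abca8a had Mobp, a myelin protein gene, at 0.697 (0.265 on raw log2 CPM), then Tmcc3 at 0.687 and Mthfd2, a mitochondrial folate enzyme, at 0.669. Abca9 had Ahnak, a large scaffold protein, at 0.792, then Lrrk1 at 0.723 and Acap2 at 0.72. Abca5 had Ranbp2, a nuclear pore protein, at 0.793, then the zinc finger genes Zfp871 at 0.771 and Zfp398 at 0.765. Abca8b had Lmo7 at 0.723, Fam76a at 0.718 and Tspyl2 at 0.714, and Abca6 had A230009B12Rik at 0.567, Scai at 0.553 and Nemp1 at 0.536. These are the highest of many values, so they are a description, beside which the 95th percentile over all genes was 0.31 for Abca8a and 0.43 for Abca9.

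Other genes of lipid handling were counted in the pooled Q140 contrast, where 0.876% of all genes were called and the median of all genes was 0.00 on the log2 scale. Of the 7 other ABC-A genes tested, 0 were called, with values from -0.05 for Abca17 to 0.07 for Abca1 and a median of -0.01. Of 10 lipid transporters of other ABC families 0 were called (median 0.00). Of 16 genes of cholesterol efflux and targets of the sterol sensor LXR, 1 rose: Apod, a lipid-binding apolipoprotein, by 0.26 (SE 0.057, edgeR adjusted p = 0.0146). Of 35 sphingolipid genes 1 fell, Ugt8a, which makes the myelin lipid galactosylceramide, by 0.13 (SE 0.030, edgeR adjusted p = 0.0138), and of 17 genes of lysosomal lipid handling 0 were called.

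Cell type markers stood beside the Abca8a difference as follows, in the pooled contrast, where 0.876% of all genes were called. Of 15 oligodendrocyte markers 0 rose and 1, Ugt8a, fell (median log2 -0.03). Their summed FPKM was 374 to 577 with Q140 (median 434) and 330 to 539 without (median 453). Of 7 markers of newly formed oligodendrocytes 1 rose, Enpp6, by 0.43 (SE 0.077, edgeR adjusted p = 0.000641), and the sums were 33.1 to 53.8 and 29.6 to 43.5. Of 11 astrocyte markers 2 fell, Aldoc by 0.10 (SE 0.020, edgeR adjusted p = 0.00657) and Slc1a2 by 0.08 (SE 0.017, edgeR adjusted p = 0.0123), and of 9 neuron markers 1 fell, Rbfox3, by 0.07 (SE 0.014, edgeR adjusted p = 0.00701). Of 10 microglia markers 0 were called, with 9 above 0. Of the fibroblast markers 0 were called. All 11 lay above 0 against WT (median log2 0.24) and on Ccdc82-/- (median 0.16), and 10 of 11 lay below 0 on Ccdc82+/- (median -0.09). The pooled fibroblast median was 0.13. In the remaining lists (oligodendrocyte precursor, endothelial, pericyte and smooth muscle, choroid plexus, red blood cell) 0 were called. None of the markers was listed at 0 in all mice, and their part in the Abca8a difference was not tested.

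Between the sexes, where 10.5% of all genes were called, 0 of the 7 other ABC-A genes passed (median -0.01). Lcat, which esterifies cholesterol on lipoproteins, fell by 0.16 in males (SE 0.046, edgeR adjusted p = 0.0189) as 1 of 16 efflux genes, and of 35 sphingolipid genes 2 rose and 4 fell.

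Genes around the cluster were examined within 1 Mb of its ends, where 31 other genes are annotated and 15 were tested. In each of the 14 contrasts 0 of the 15 were called, beside 10.5% of all genes between the sexes and 0% to 0.876% in the other contrasts. With Q140 pooled they ran from -0.25 for Gm25540, a short RNA gene with an SE of 0.157, to 0.04 for Map2k6, a kinase of the p38 pathway. Fam20a, the nearest tested gene beyond Abca8b, was at 0.01 (SE 0.044). Between the sexes they ran from -0.08 for Fam20a to 0.12 for Arsg, a lysosomal sulfatase (SE 0.053, edgeR adjusted p = 0.13).

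**Figure D5:**
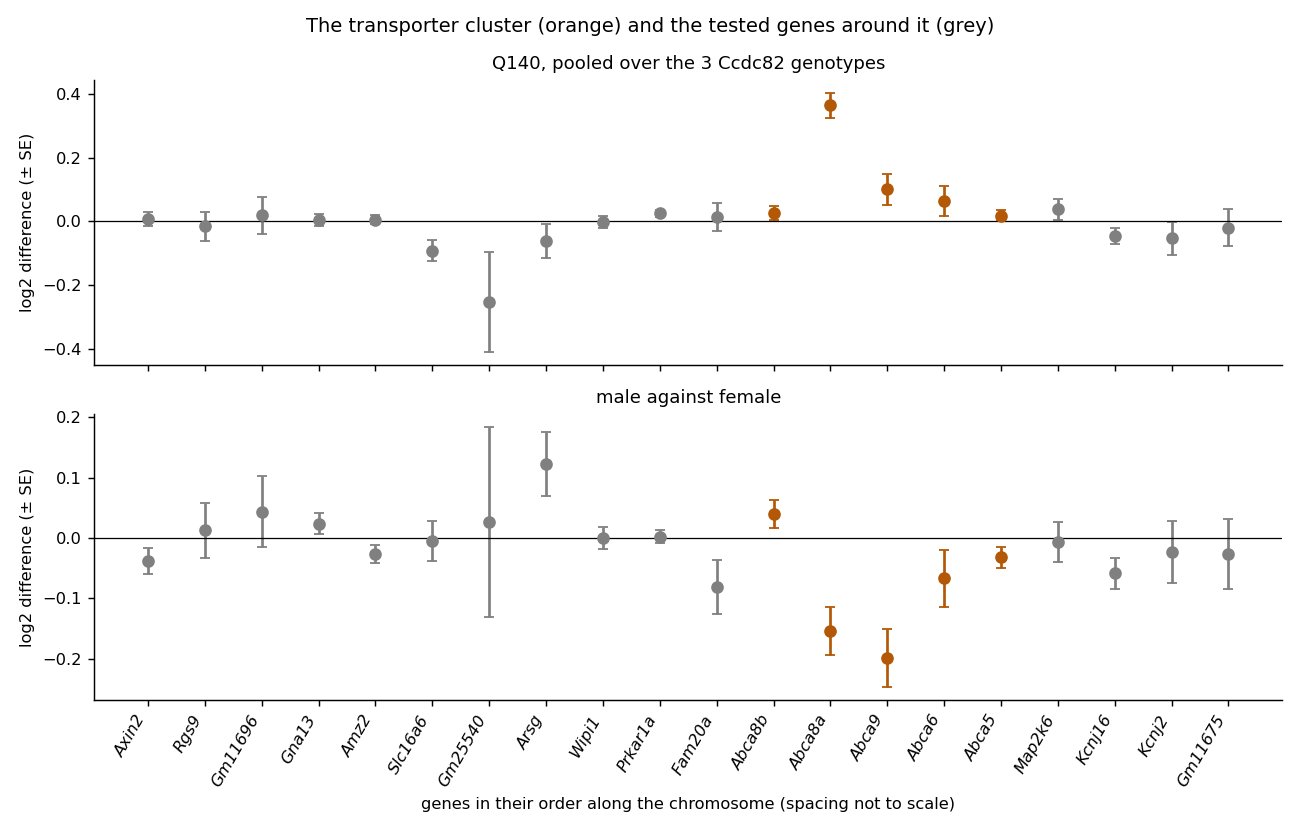
Log2 differences with SE for the 5 cluster genes (orange) and 15 tested neighbours (grey) in their order along the chromosome, with Q140 pooled above and male against female below. Abca8a stands at 0.36 above its neighbours in the upper panel, and Abca8a (-0.15) and Abca9 (-0.20) are the lowest in the lower one.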

How the data were processed

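Counts per gene, with no normalization, were deposited by the authors. FPKM, scaled to gene length and library total, was also deposited, and each member had 1 length in all libraries. Tools listed in the submitters' processing notes are HTSeq 0.12.3, STAR 2.7.5c and SAMtools 1.10, with builds GRCm38 and mm10, and the labels name a stranded library kit. The sources used here do not say how reads that fit several genes were counted.

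The filter filterByExpr (minimum count 10, minimum total 15) left 19174 of 48795 genes, all 5 members among them. Counts were fitted in edgeR 4.0.16 (TMM, robust quasi-likelihood, R 4.3.3) with 6 genotype means and sex over 47 libraries, and in 12 genotype by sex means for the interaction of Q140 with sex. P-values were adjusted by Benjamini-Hochberg over all 19174 genes and called under 0.05 with no fold threshold. SEs are those implied by the F statistic. Correlations used log2 CPM (prior count 2) with 100000 permutations within genotype and sex. Scripts were tested on simulated data. Libraries are taken as separate mice, as their titles number them; p-values measure the spread between them. Intervals cover 1.96 SE on each side. Alternatives used DESeq2 1.42.0 and limma 3.58.1 (log2 of FPKM with a pseudocount of 0.1).

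The members and gene lists were chosen with earlier results of these data known. Named genes are all 5 members, up to 4 a list by p and then by level, the 3 most alike genes per member, and the tested neighbours by range.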

Additional observations from a re-analysis of the deposited data

Results flagged for a closer look

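Dixon's test at the 95% level was applied to the FPKM of each gene in each genotype, 30 groups in all, and set apart 3 mice, where chance sets apart about 1 group in 20. For Abca8a in the Q140 group, female 1 was the highest at 1.97938 FPKM, and the next of the 8 mice was at 1.60. For Abca5, male 3 of the Q140 group was the lowest at 7.1866 FPKM, and female 1 of the Q140 X Ccdc82-/- group was the highest at 8.78877. Leaving out each of these mice, an alternative chosen after seeing the data, changed no count of tested members called.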

How the results depend on the processing

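Under 9 listed alternatives (RLE size factors, DESeq2, no filter on low counts, no sex term, plate column, replicate block, library-name number as a random block, compared groups alone, FPKM in limma-trend) the count of members called was the same in each of the 10 tested contrasts where a setting could be fitted. For male against female Abca8a stayed between -0.158 and -0.132 and Abca9 between -0.211 and -0.176 over 7 of them. The other sign appeared in 11 of 710 recomputed tested differences, all of members not called: Abca8a in Ccdc82-/- against WT (0.0102, random block), Abca8b there (0.00157, plate column), Abca6 in the interaction with Ccdc82-/- (0.00139 without the filter) and, in the interaction of Q140 with sex, Abca5 (-0.00797, plate column) and Abca8a (-0.00663 with the plate column, -0.00201 with the replicate block, -0.00612 with FPKM and, added after seeing the data, -0.000533 in limma-trend without a block). Leaving out each of the 3 mice that Dixon's test set apart, also added, gave Abca6 -0.0162 to 0.0228 in Q140 X Ccdc82-/- against Q140 and, in the interaction with Ccdc82-/-, -0.0332 to 0.00595 for Abca6 and -0.0133 to 0.014 for Abca5. The cause was not tested, and each of these values is smaller than its SE.

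For Q140, described only, Abca8a kept a log2 difference of 0.401 to 0.436 against WT, 0.336 to 0.367 on Ccdc82+/-, 0.294 to 0.313 on Ccdc82-/- and 0.344 to 0.369 pooled. Its call was absent against WT with the groups alone and on Ccdc82+/- without the sex term or with the plate column. On Ccdc82-/- it was present in DESeq2. Nothing is read from these calls, since the Q140 result of Abca8a was known when the genes were chosen. Correlations that changed sign were Abca5 with Abca6 (0.00891 with the plate column removed, 0.0272 on raw log2 CPM), Abca5 with Abca8a (0.103, raw) and Abca8a with Abca9 (-0.00204, plate column removed). None of these pairs passed with genotype and sex removed, and the permutations do not test the raw values. Without the 2 extreme mice Abca5 with Abca8b went from -0.0551 to 0.0418, and within library-name numbers, where no test was run, Abca8a with Abca8b went from -0.0626 to 0.332.

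Mice of different genotypes with the same sex and replicate number did not deviate together (mean r -0.00516 over 115 pairs). Of 47 libraries, 6 correlated best with their own replicate number, and the labels give no pairing. Libraries sharing a library-name number were more alike, with mean r 0.115 over 45 pairs against -0.0257 over other pairs. The consensus correlation within such a number was 0.141. The main edgeR fits and the permutations did not model it. With the replicate block, Abca8a was at -0.153 and Abca9 at -0.197 between the sexes, with 2 members called. Abca6, with 86 to 141 counts, has the fewest counts of the 5.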
